A study of Arabidopsis thaliana with 6 samples.

Results

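The beta-glucosidase (BGLU) genes of Arabidopsis thaliana encode enzymes that cut glucose, and in some cases other sugars, from small molecules. Members were taken from the Affymetrix ATH1 array as every probe set that the platform annotation names with a single gene whose symbol is BGLU and a number. This gave 20 probe sets, 1 for each of 20 genes, out of 22746 probe sets other than controls. RNA was from siliques, the seed pods, of the accession Col-1, grown on compost in a glasshouse under continuous light. The arrays were 3 of young pods and 3 of old pods, in replicates numbered 1 to 3. All 6 samples carry the same tissue label, mature and senescing siliques, and the same stage label, first silique shattered, so only the titles separate young from old. The labels name no mutation or treatment, do not say how pod age was set, and do not say whether the replicates came from separate plants. What the p-values weigh is thus the spread among these 6 samples, which may be technical.

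BGLU proteins belong to a family of retaining glycosidases that work on sugar conjugates, which plants keep as inactive stores of hormones, defence compounds, flavonoids and lignin precursors. Removing the sugar releases the active or insoluble part, so an enzyme of this kind sits opposite a UDP-glycosyltransferase that adds the sugar. Several members lie side by side in the genome as products of tandem duplication, and some, the myrosinases, cut glucosinolates. A pod holds several tissues that use such conjugates, among them lignifying valve margins, a flavonoid-rich seed coat and embryos that respond to abscisic acid.

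The values were MAS5 signals on a linear scale. After 2% was trimmed from each end, the mean signal was the same on all 6 arrays to 3 digits, which shows scaling to a common target. A change running through most transcripts would not be visible on this scale. Probe sets respond differently to the same amount of RNA, so the order of signals among members is not an order of transcript amounts. Over the 14277 probe sets tested, log2 signals correlated at 0.858 to 0.951 between arrays of 1 group. Old replicate 1 correlated at 0.870 and 0.858 with old replicates 2 and 3, which correlated at 0.951 with each other. The replicate 1 arrays also had higher hybridisation control signals, with means of 9.77 and 9.96 on the log2 scale against 8.04 to 8.60 on the other arrays. The log2 ratio of 3 prime to 5 prime control probe sets overlapped between groups. For actin it was 2.68 to 3.46 in young and 2.56 to 4.52 in old pods. For GAPDH it was 0.52 to 1.12 and 0.60 to 1.68, with old replicates 1 and 2 (1.56 and 1.68) above every young array. For ubiquitin it was 1.29 to 1.73 and 0.89 to 2.23, with old replicate 1 the highest array. Values without old replicate 1 are given below where that array ends or makes a call or moves a value by over 1.5 times.

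Testing needed a signal above the 40th percentile of the array on at least 3 of the 6 arrays, which 10 of the 20 members had. BGLU15, BGLU16, BGLU25, BGLU40, BGLU42, BGLU44 and BGLU45 were above it on all 6 arrays, and BGLU29, BGLU41 and BGLU46 on fewer. BGLU19, BGLU28, BGLU33 and BGLU47 were above it on 1 or 2 arrays. BGLU24, BGLU27, BGLU31, BGLU32, BGLU36 and BGLU43 were above it on none, with signals from 0.20 to 23.7. In young pods the brightest members by array rank were BGLU44, BGLU40 and BGLU45, whose mean percentiles of 93.2, 92.4 and 92.4 are not an order. In old pods BGLU45 stood highest at a mean percentile of 98.0 and BGLU16 followed at 92.8, while BGLU40 and BGLU44 were at 76.0 and 72.6. The brightest members of the family thus differed between the groups, and BGLU45 alone was among the top 3 in both.

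**Figure D1:**
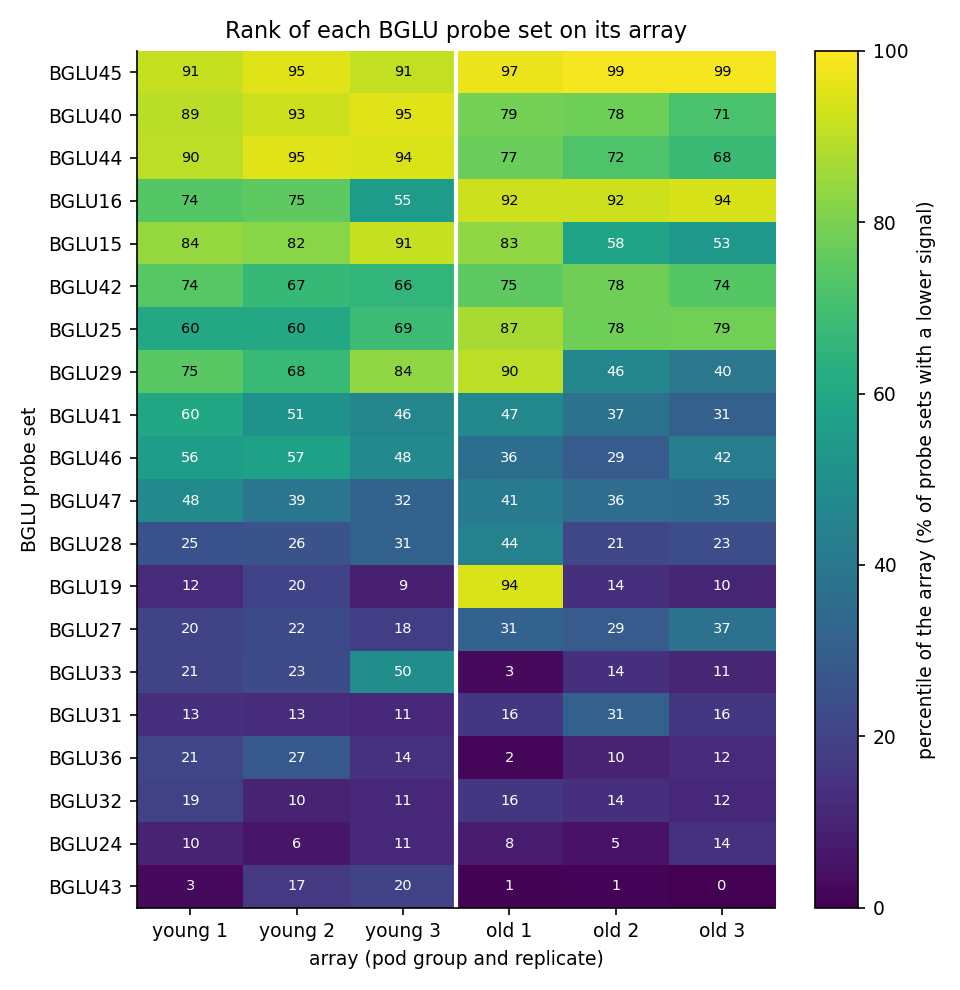
Percentile of each of the 20 BGLU probe sets on each array, meaning the share of probe sets with a lower signal, with members ordered by their mean percentile. BGLU45 is bright in both groups, BGLU16 is brighter and BGLU40 and BGLU44 are dimmer in old pods, and BGLU19 is bright on old replicate 1 only.

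Of the 10 tested members, 3 rose and 3 fell in old pods at a limma adjusted p under 0.05, beside 22.0% of all tested probe sets called in either direction, 9.68% higher and 12.3% lower. The risers were BGLU16, BGLU45 and BGLU25, and the fallers were BGLU44, BGLU40 and BGLU46. The signals of old and young pods did not overlap for these same 6 members, against 40.9% of all tested probe sets. The median log2 fold change of the 10 was -1.14 and their median absolute change 1.41, beside -0.08 and 0.44 for all tested probe sets. These counts describe only members bright enough to be tested, and a member that is bright in 1 group passes that filter more easily. Without old replicate 1 the count of fallers was 6 in place of 3, with BGLU15, BGLU29 and BGLU41 added, and all 6 calls above were kept. When arrays were scaled on the hybridisation controls instead, none of the 10 passed in limma, and 2 had an unadjusted p under 0.05. All 10 kept their direction there, but with larger SEs. BGLU44 was then at -1.86 with an SE of 0.93 and BGLU16 at 1.91 with an SE of 0.92.

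**Figure D2:**
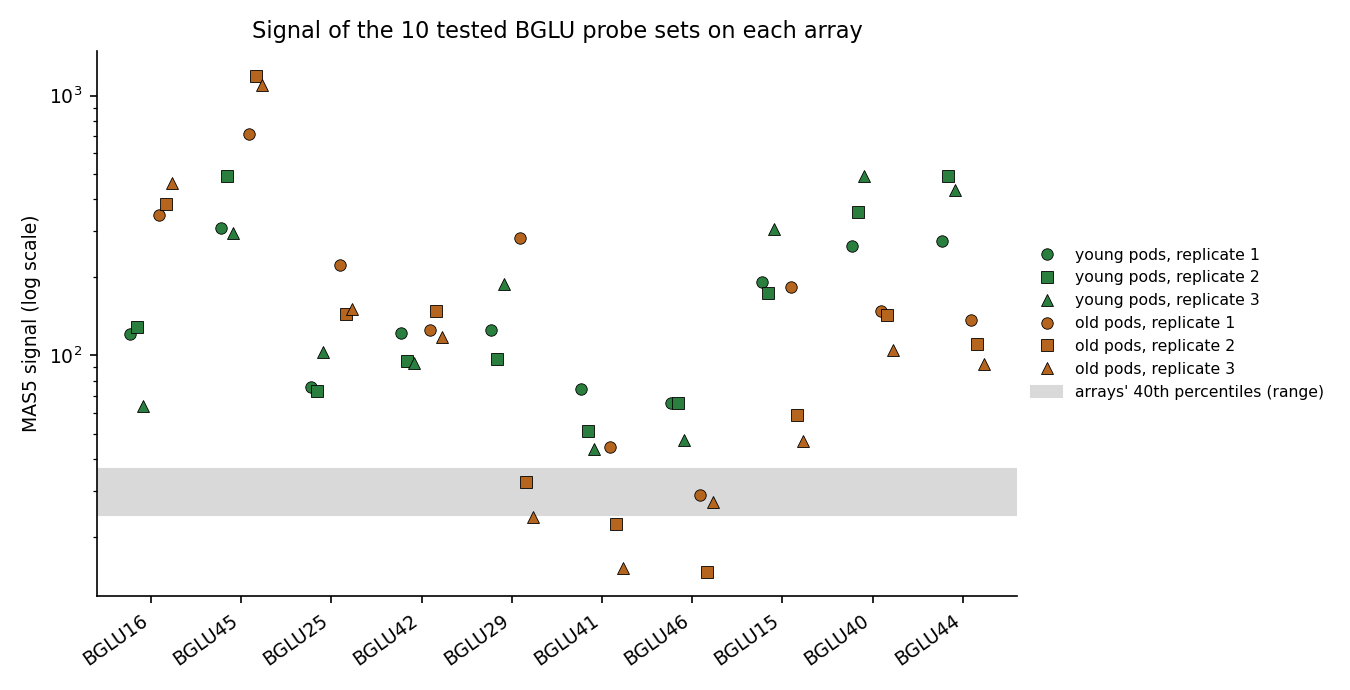
MAS5 signal on a log axis of the 10 tested BGLU probe sets, with 1 point per array (green young pods, brown old pods, marker shape by replicate number). The grey band spans the 40th percentiles of the 6 arrays, from 24.3 to 36.5. Old pods lie above young pods for BGLU16, BGLU45 and BGLU25 and below them for BGLU46, BGLU40 and BGLU44, with no overlap.

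BGLU45 and BGLU46, which cut the glucosides of monolignols, the building blocks of lignin, moved in opposite directions. They are neighbouring genes (loci AT1G61810 and AT1G61820, with no protein-coding gene between them in the TAIR10.1 gene table). BGLU45 had signals of 309, 489 and 297 in young pods and 709.6, 1195 and 1098 in old pods. All 3 old arrays were above all 3 young arrays, the lowest of them replicate 1. The rise was 2.75-fold (1.46 on the log2 scale with an SE of 0.28, limma adjusted p = 0.00977, n = 3 and 3 arrays). BGLU46 had signals of 65.3, 65.8 and 47.1 in young pods and 29.1, 14.7 and 27.2 in old pods. Every old array was below every young array, and only old replicate 3 was above its array's percentile. The fall was 2.59-fold (-1.37 on the log2 scale with an SE of 0.35, limma adjusted p = 0.0290, n = 3 and 3 arrays). The BGLU46 call ended when any 1 array other than old replicate 1 was left out (limma adjusted p up to 0.113).

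Within an array, the log2 ratio of BGLU45 to BGLU46 was 2.24, 2.89 and 2.65 in young pods and 4.61, 6.35 and 5.34 in old pods. The ratio was higher on every old array than on any young array, by 2.83 on the log2 scale from a mean of 2.60 ± 0.33 to 5.43 ± 0.87 (SD, n = 3 arrays each). The exact two-sided permutation p was 0.10, the smallest that 3 against 3 arrays can give, and 0.20 adjusted over the 2 neighbour pairs compared. This pair was singled out with its changes known. Old signals lay wholly above young ones for BGLU45 and wholly below them for BGLU46. The order of the ratios and this p were thus fixed in advance and add no support. BGLU47, another gene of the same branch of the family, stayed close to the percentile, with signals of 48.5, 31.6 and 23.3 in young and 36.0, 20.8 and 18.9 in old pods. Its groups overlapped and it was not tested.

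BGLU16 and BGLU25 were the other members that rose. BGLU16 (locus AT3G60130) had signals of 121, 129 and 63.9 in young pods and 347, 382 and 459 in old pods. The lowest old signal was well above the highest young signal. BGLU16 rose 3.94-fold (1.98 on the log2 scale with an SE of 0.29, limma adjusted p = 0.0033, n = 3 and 3 arrays). BGLU27, the gene beside it, was dim throughout, with 12.9, 13.0 and 10.5 in young and 23.7, 14.5 and 21.1 in old pods. Those groups also did not overlap, but all 6 signals were under the percentile, so no fold is given. BGLU25 (locus AT3G03640) had signals of 75.5, 73.1 and 103 in young pods and 223, 144 and 151 in old pods. All old signals were higher, old replicate 1 the most. BGLU25 rose 2.05-fold (1.03 on the log2 scale with an SE of 0.24, limma adjusted p = 0.0208, n = 3 and 3 arrays). Its call ended without young replicate 1 (adjusted p = 0.0529), without young replicate 2 (0.0807) and in replicates 2 and 3 alone (0.0532).

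BGLU44 and BGLU40 fell from among the brightest members. BGLU44 (locus AT3G18080) is a member whose recombinant enzyme prefers mannosides to glucosides. Its signals were 276, 489 and 433 in young pods and 137, 110.3 and 92.8 in old pods. The groups were well apart, with old replicate 1 the highest of the old arrays and young replicate 1 the lowest of the young. BGLU44 fell 3.46-fold (-1.79 on the log2 scale with an SE of 0.26, limma adjusted p = 0.00334, n = 3 and 3 arrays). Its neighbour BGLU43 (locus AT3G18070) had signals of 1.40, 8.00 and 11.5 in young and 0.70, 0.50 and 0.20 in old pods. All old signals were lower, but both groups were under the percentile on every array, so no fold is given. BGLU40 (locus AT1G26560) had signals of 265, 358 and 489.7 in young pods and 149, 144 and 105 in old pods. Every old array was below every young array. BGLU40 fell 2.74-fold (-1.46 on the log2 scale with an SE of 0.27, limma adjusted p = 0.00763, n = 3 and 3 arrays).

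With its sign left aside, the change was smaller in the replicate 1 pair than in replicates 2 and 3 for 9 of the 10 tested members. BGLU25 was the exception. The same held for 53.6% of all tested probe sets and 65.8% of those called. BGLU29 went the other way in the replicate 1 pair, at 1.18 against -2.28 on the log2 scale. For BGLU44 the replicate 1 pair gave a log2 change of -1.01 and the other pairs together -2.18. For BGLU40 it was -0.83 and -1.77, and for BGLU16 it was 1.53 and 2.21. BGLU45 differed less, at 1.20 and 1.59, and BGLU46 was at -1.17 and -1.48. The called members kept their direction in all 3 replicate pairs, as any pairing must where the groups do not overlap.

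**Figure D3:**
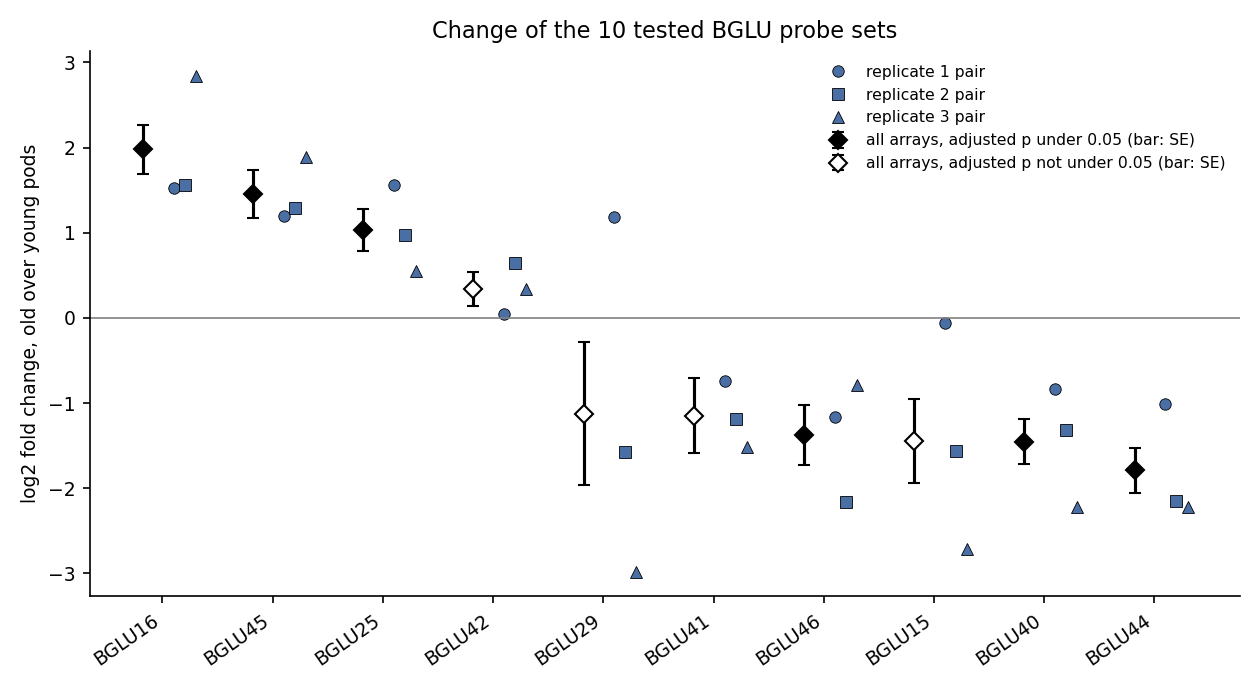
Log2 fold change of old over young pods for the 10 tested BGLU probe sets. Diamonds give the change over all arrays with its SE, filled where the limma adjusted p is under 0.05, and coloured points give the 3 same-numbered replicate pairs; the replicate 1 pair of BGLU29 and BGLU15 lies far above the other pairs.

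BGLU15, BGLU28 and BGLU29 are 3 successive protein-coding genes (loci AT2G44450, AT2G44460 and AT2G44470). For each of them, old replicates 2 and 3 were below every young array, but old replicate 1 was not. BGLU15 removes glucose from flavonol bisglycosides, and BGLU28 is known for its induction under sulfur deficiency, when it cuts glucosinolates. BGLU15 had signals of 191, 174 and 307 in young pods and 183, 59.0 and 46.9 in old pods. Old replicate 1 lay within the range of the young arrays. BGLU15 did not pass over all arrays (log2 fold change -1.45, SE 0.49, limma adjusted p = 0.0730). Without old replicate 1 it was at -2.05 with a limma adjusted p of 0.00273.

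BGLU29 had signals of 125, 97.1 and 189 in young pods and 284, 32.7 and 23.9 in old pods. Old replicate 1 was the brightest of all 6 arrays, and old replicate 3 was under the percentile. Over all arrays BGLU29 was at -1.12 (SE 0.84, limma adjusted p = 0.381), and without old replicate 1 at -2.24 (limma adjusted p = 0.0029). BGLU28 had signals of 18.5, 15.9 and 22.8 in young and 39.5, 9.10 and 9.90 in old pods, again brightest on old replicate 1. That was its only signal above the percentile, and it was not tested. The log2 ratio of BGLU15 to BGLU29 was 0.61 to 0.84 on the young arrays and 0.85 and 0.97 on old replicates 2 and 3, but -0.63 on old replicate 1. The groups overlapped in this ratio only through old replicate 1 (exact two-sided permutation p = 1.0, n = 3 arrays each). That p hangs on this 1 array and does not show that the ratio was steady.

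BGLU19 (locus AT3G21370) had a signal of 436 on old replicate 1 and of 5.10, 10.7 and 2.90 in young pods and 3.90 and 2.30 on old replicates 2 and 3. Its percentile was 94.2 on that array and at most 19.9 on the others, so its old pod mean rests on 1 array. On the log2 scale old replicate 1 stood 7.18 above the mean of the other old arrays, a gap exceeded by 0.0132% of all 22746 probe sets. The corresponding gap was 3.34 for BGLU29, 2.06 for BGLU28 and 1.80 for BGLU15, exceeded by 1.71%, 6.48% and 8.20% of probe sets. For BGLU19 and BGLU28 the dimmer end of the gap lay below the 40th percentile signals, 25.2 and 24.3 on old replicates 2 and 3. Those gaps are thus differences between recorded values and do not size a change. BGLU29 shares this limit through old replicate 3 alone, and BGLU15 does not. Dim probe sets also entered the ranking, so its percentages describe recorded values only. BGLU19 was not tested.

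Seed genes were also brighter on old replicate 1. Of 21 seed storage and late embryo genes, PAP85 and OLEO3 were the 2 with a named probe set, and both were tested. PAP85, a vicilin-like storage protein, had a signal of 3701 on old replicate 1 against 215 and 210.1 on old replicates 2 and 3 and 14.9 to 25.9 in young pods. OLEO3, an oleosin of oil bodies, had 2219 on that array against 179 and 263 on the other old arrays and 158 to 1099 in young pods. The summed signal of the 2 genes was 5919 on old replicate 1, 394 and 473 on the other old arrays and 174 to 1125 in young pods. PAP85 passed the threshold as higher in old pods (at least 16.1-fold against the percentile that all young arrays were under, limma adjusted p = 0.0122). Without old replicate 1 that bound was 6.21-fold (limma adjusted p = 0.000476). OLEO3 was at 0.05 (limma adjusted p = 0.979). Its replicate 1 pair was at 1.01 on the log2 scale, and its replicate 2 and 3 pairs were at -1.59 and 0.73, or -0.43 together. Its value thus hangs on which replicates are used, and a fit without old replicate 1 is not given for it. The part that seed RNA has in the old replicate 1 signals of BGLU15, BGLU19, BGLU28 and BGLU29 was not tested. In whole pods, fewer cells of a type and less RNA per cell cannot be told apart.

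**Figure D4:**
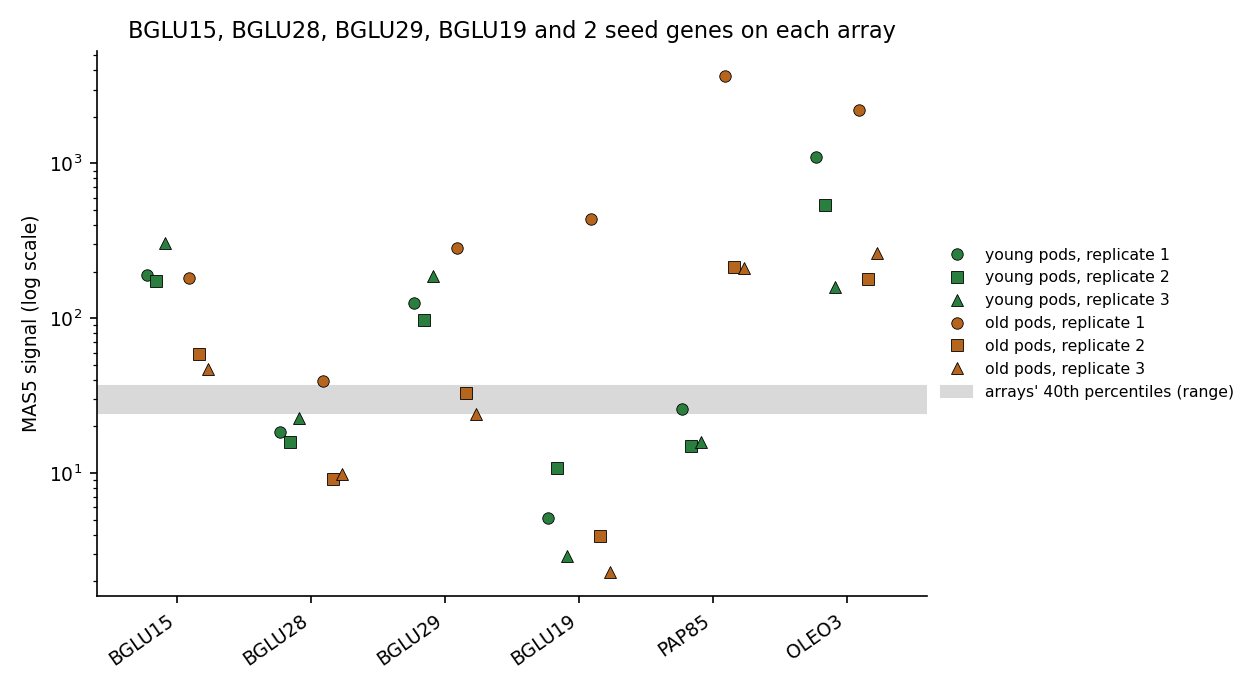
MAS5 signal on a log axis of BGLU15, BGLU28, BGLU29, BGLU19 and the seed genes PAP85 and OLEO3, with 1 point per array and the 40th percentiles of the arrays as a grey band (24.3 to 36.5). Old replicate 1 is the brightest array for BGLU28, BGLU29, BGLU19, PAP85 and OLEO3, and lies among the young arrays for BGLU15.

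BGLU41 and BGLU42 were the remaining tested members. BGLU41 (locus AT5G54570) had signals of 74.0, 51.1 and 43.5 in young pods and 44.4, 22.4 and 15.2 in old pods. The groups overlapped only through old replicate 1 and young replicate 3. BGLU41 was at -1.15 on the log2 scale (SE 0.44, limma adjusted p = 0.10). Blocking on the replicate number, it passed (limma adjusted p = 0.0380), and it also did without old replicate 1 (limma adjusted p = 0.0161). Both remaining old signals were then under the percentile, so that fall was at least 2.21-fold. BGLU42 (locus AT5G36890), known from roots for releasing the coumarin scopoletin from its glucoside, had signals of 122, 94.8 and 93.6 in young pods and 126, 148 and 118 in old pods. Its groups overlapped and it did not pass, at 0.34 (SE 0.20, limma adjusted p = 0.262). BGLU42 was the steadiest of the tested members, with SDs of 0.22 and 0.17 on the log2 scale in young and old pods (n = 3 arrays each).

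Among the untested members, BGLU33 had signals of 13.3, 13.3 and 50.9 in young pods and 1.30, 3.90 and 2.40 in old pods. BGLU33 frees abscisic acid from its glucose ester in the vacuole. Its old signals were all lower, but only young replicate 3 was above the percentile, and no fold is given. BGLU36, of the myrosinase branch of the family, had 13.6, 17.7 and 6.80 in young and 1.00, 2.40 and 2.90 in old pods, all under the percentile. When every probe set was tested with no filter, BGLU33, BGLU36 and BGLU43 joined the 3 fallers. Old signals lay wholly below young signals for these 3 of the 10 untested members, and wholly above them for BGLU27, beside 14.5% and 3.99% of the 8469 untested probe sets. BGLU24, BGLU31 and BGLU32 had overlapping groups and signals of 1.30 to 16.1.

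The TAIR10.1 gene table holds 47 genes with a BGLU number. Besides the 20 members, BGLU21 and BGLU22, root enzymes of the endoplasmic reticulum bodies, share 1 probe set, which gave 0.20 to 11 on the 6 arrays. The annotation names 2 others by another symbol. PYK10 (BGLU23), the main beta-glucosidase of the root bodies, had signals of 10.1 to 35.3, and ATA27 (BGLU20), an anther gene, had 0.40 to 3.00. All 3 of these probe sets were under the percentile on every array. The other 23 genes were not analysed here, among them DIN2, next to BGLU16, and BGLU17, next to BGLU29. Probe sequences were not used here, so signal shared between close neighbours was not assessed.

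Genes that act beside the family were read from fixed lists, beside a median of -0.08 for all tested probe sets. Of these, 9.68% were called higher in old pods and 12.3% lower. In the abscisic acid list of 18 genes, 2 of the 4 with a named probe set were tested, of which 1 rose and 1 fell (median 0.09). UGT71C5, which adds glucose to abscisic acid, the reverse of the BGLU33 reaction, had signals of 52.2, 73.0 and 40.6 in young and 112, 116 and 95.3 in old pods. Its groups did not overlap, and it rose 2.00-fold (SE 0.26, limma adjusted p = 0.0282, n = 3 and 3 arrays). That call ended without young replicate 1 or 3 or old replicate 2 or 3 (limma adjusted p up to 0.101). UGT73B1 fell 1.76-fold (limma adjusted p = 0.0461), a call that ended when any 1 of the 6 arrays was left out (limma adjusted p up to 0.167) and with median centring or quantile normalization (0.176 and 0.127).

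In the monolignol list of 23 genes, 3 of the 5 with a named probe set were tested, of which none rose and 1 fell (median 0.00). HCT, an early step towards monolignols, had signals of 984, 877 and 988.5 in young and 491, 309 and 511 in old pods. It fell 2.22-fold (SE 0.23, limma adjusted p = 0.0117, n = 3 and 3 arrays), while BGLU45 rose. UGT72E2, which makes the glucosides that BGLU45 and BGLU46 cut, had 61.3, 31.4 and 47.5 in young and 66.3, 48.3 and 64.5 in old pods and did not pass (0.39, limma adjusted p = 0.40).

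In the flavonoid and coumarin glycoside list of 22 genes, 4 of the 7 with a named probe set were tested, of which 1 rose and 2 fell (median -1.73). F6'H1, which makes the scopoletin precursor, had signals of 1.90, 1.30 and 5.10 in young pods and 144.5, 257 and 463 in old pods. It rose at least 7.54-fold, with all young arrays under the percentile (limma adjusted p = 0.000634). UGT78D1, which adds a sugar to flavonols, fell at least 8.51-fold (limma adjusted p = 0.000349). DFR, of anthocyanin and tannin synthesis, fell 27.5-fold (limma adjusted p = 0.000863), and 42.1-fold without old replicate 1. In the dark and sugar starvation list of 18 genes, 3 were tested and none passed in limma, nor had more than 1 an unadjusted p under 0.05 (median 0.30). MCCB, of leucine breakdown, was at 0.61 (limma adjusted p = 0.0810) and AKINBETA1, a kinase subunit, at 0.30 (limma adjusted p = 0.437). Of 16 genes of the endoplasmic reticulum bodies and their lectin partners, none of the 6 with a named probe set was tested. The lists for glucosinolate breakdown, sulfur deficiency and other exo-glycosidases had no named probe set.

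Tissue markers moved between the groups beside the BGLU genes. Of all tested probe sets, 9.68% were called higher in old pods and 12.3% lower. The 2 seed coat genes with a named probe set, BAN and DELTA-VPE, both fell, with a summed signal of 3733 to 6473 in young pods and 40.4 to 228 in old pods, where old replicate 1 was the highest. Of 4 green tissue genes 3 fell and none rose, with summed signals of 7846 to 10645 and 4352 to 5070. RCA, the brightest of the 4, did not pass, at 3182 to 4509 in young and 2650 to 3441 in old pods (limma adjusted p = 0.302). Of 3 valve margin genes 1 rose, ADPG1, with summed signals of 582 to 965 and 1503 to 1850. That rise in the sum was that of ADPG1, at 45.1 to 102 in young and 901 to 1248 in old pods. ALC and SPT did not pass (-0.24 and 0.27, limma adjusted p = 0.517 and 0.555). Of 5 senescence genes 3 rose and none fell, with summed signals of 258 to 349 and 680.0 to 820 (757.7 on old replicate 1). The risers were WRKY53, WRKY6 and SAG101. On old replicates 1, 2 and 3 WRKY53 was at 260, 344 and 474 and WRKY6 at 57.9, 162 and 171. SAG101 was at 63.3, 59.3 and 39.5 there. SAG29 did not pass (limma adjusted p = 0.880) and was at 332, 81.9 and 107, so it was the largest part of the old replicate 1 sum. The single endosperm marker, AGL62, gave 9.90 to 23.7, the 2 root markers 15.2 to 49.8 in sum, and the tapetum marker ATA27 0.40 to 3.00, all untested. The vascular list had no named probe set. The part of these tissues in the changes of the BGLU genes was not tested.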

How the data were processed

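Total RNA of 3 young and 3 old pod samples was hybridised to ATH1 arrays. The deposited intensities hold 1 signal per probe set. The submitters' processing notes name MAS5 as the tool, and no version or scaling step is given there.

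Signals under 0.1 were set to 0.1 and taken as log2. Of 22810 probe sets, 64 controls were left out, and the 14277 above the 40th percentile of their array on at least 3 arrays were tested. The comparison used limma 3.58.1 under R 4.3.3 (lmFit, eBayes with a variance trend, no covariate), with Benjamini-Hochberg adjustment over all of these, two-sided, at a threshold of 0.05. The fit was tested on simulated data. Folds written "at least" set the brighter group against the percentile of the dimmer. With 6 arrays, their number limits the precision.

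Gene numbers in the platform annotation were matched to the TAIR10.1 gene table, which held all 20 members. The build behind the annotation is not given, so no coordinates are printed. Every member was named whatever its value, and of each other list up to 4 genes that passed, by size of change, or the 2 brightest tested. Values of OLEO3, UGT72E2 and AGL62 lie outside that rule and were chosen after their values were seen. From the lists, a protease and a repeated name were dropped before values were read. Members and lists were chosen with earlier results of these data known. Between same-numbered young and old arrays, deviations from group means had correlations of 0.286, 0.113 and 0.119, all above 0.1. The numbers were thus taken as pairs in an alternative fit with the replicate number as a block. The main fit was unpaired. The other alternatives were scaling, filters, low signals, the variance model and leaving out arrays.
Sequences were not used here.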

Additional observations from a re-analysis of the deposited data

How the results depend on the processing

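Over 17 alternatives, 4 tested members stayed higher and 6 lower in old pods wherever all 10 were tested, and no tested member reversed. Alternatives that changed only the filter, the variance model, the test or a replicate term left each fold change as it was. Those could not have reversed a member. The array-wide count of 3145 was 607 with scaling on the hybridisation controls and 1360 with the two-sample test without moderation. Risers numbered 0 and 1 and fallers 0 and 1 under these 2 settings, against 3 and 3. The cause was not tested. The count of fallers was 6 with no filter, which tests all 20 members, 5 with a batch term for replicate 1 and 6 in replicates 2 and 3 alone. Leaving out 1 array at a time gave 1736 to 3602 probe sets, 2 to 3 risers and 2 to 6 fallers. The array-wide count was 1812 without young replicate 2, 1736 without old replicate 2, 1975 without young replicate 3 and 2047 without old replicate 3. Pairing by the replicate block gave 3480 probe sets, 3 risers and 4 fallers, BGLU41 added, and changed no other member's call. Median centring moved the median of all tested probe sets from -0.08 to 0.18, and 62.4% of calls were then higher in old pods against 43.9%, with the same 6 members called. AKINBETA1 reversed to -0.0069 in replicates 2 and 3 alone. Members under the percentile on every array of a group have only a bound there, in both groups for BGLU24, BGLU27, BGLU31, BGLU32, BGLU36 and BGLU43 and in 1 group for BGLU19, BGLU28 and BGLU33.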

Other observations

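Some dim genes beside the BGLU family had groups that did not overlap, though none was tested. UGT71B6, which also adds glucose to abscisic acid, had signals of 0.90, 4.40 and 1.00 in young pods and 26.7, 36.5 and 33.4 in old pods, where old replicates 2 and 3 were above the percentile. JAL23, a lectin that associates with PYK10, had 1.7, 4.80 and 3.60 in young and 33.4, 25.3 and 15.0 in old pods, with old replicate 2 above it. NAI1, the transcription factor that drives formation of the root bodies, had 2.20, 4.2 and 2.70 in young and 15.5, 8.00 and 4.40 in old pods, all under the percentile. These 3 were chosen after their values were seen and do not stand for their lists. In the same lists, the untested PYK10, NAI2, JAL22, JAL33 and UGT71B8 had groups that overlapped. Of all 8469 untested probe sets, 3.99% lay wholly higher in old pods and 14.5% wholly lower.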
